A study of Mus musculus with 6 samples.

Results

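The genes described here handle monoamines and the aldehydes they give rise to: Maoa and Maob, the 2 monoamine oxidases, Aldh2, a mitochondrial aldehyde dehydrogenase, Ddc, the decarboxylase that makes dopamine and serotonin, and Aoc1, the diamine oxidase. These 5 genes, of 18193 with a probe set of their own, were chosen by name because Maoa was low in 1 cell line, clone 2, so the difference between clone 2 and the other lines is given for them as a description, with no test. They were measured by 11 probe sets, of which the one with the highest mean signal stands for each gene and the others serve as a check. Expression was measured on 6 Affymetrix arrays of mpkCCD cells, a mouse cell line of the cortical collecting duct of the kidney. Clone 2 is labelled as not expressing the water channel aquaporin 2 (gene Aqp2). Clones 3, 9, 10 and 11 and the original cells are labelled as expressing it. All 6 lines were kept with dDAVP, an analog of the hormone vasopressin, at 0.1 nM for 5 days, so no line without the hormone was compared. Each line had 1 array and clone 2 is a single clone, so line, culture and array cannot be told apart, and neither can fewer cells with a transcript and less of it per cell.

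Monoamine oxidases sit in the outer membrane of mitochondria, carry the cofactor FAD, and turn an amine into an aldehyde with release of ammonia and hydrogen peroxide. MAO-A, the product of Maoa, prefers serotonin and noradrenaline, MAO-B, the product of Maob, prefers phenylethylamine, and both act on dopamine. The aldehydes are then oxidised by aldehyde dehydrogenases such as ALDH2 or reduced by aldehyde and aldose reductases. In the kidney, dopamine is made mainly in the proximal tubule and lowers sodium reabsorption, and the breakdown enzymes limit its action.

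Because the low signal of Maoa in clone 2 led to the choice of these genes, the stretch around its annotated start is shown. It is RefSeq's window on the plus strand of GRCm38.p6, chrX:16619448-16619747, with 250 bases before the start and 50 after it. Capitals mark the GC box, searched as GGGCGG and its reverse complement CCGCCC, which Sp1 and related factors are known to bind.
Maoa: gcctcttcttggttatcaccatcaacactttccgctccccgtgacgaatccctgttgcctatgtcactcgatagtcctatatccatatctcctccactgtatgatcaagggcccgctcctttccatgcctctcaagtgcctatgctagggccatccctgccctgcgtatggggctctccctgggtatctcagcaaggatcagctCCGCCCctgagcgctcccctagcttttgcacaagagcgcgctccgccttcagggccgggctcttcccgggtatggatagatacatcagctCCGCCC
The window held 2 boxes, both as CCGCCC and with no overlap, at -46 and 45 from the start. Of 32851 such windows in the table, 35.7% held at least 1 box and 19.5% held at least 2. A match of these letters is a description only, and no file used here measures binding or methylation there.

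Across the arrays, median signals lay between 79.6 in clone 2 and, among the expressing lines, 84.3 in clone 11 to 88.6 in clone 10. Aqp2 itself had a signal of 159.3 in clone 2, against 1697.9, 4683.4, 1066.4, 6577.7 and 3822.4 in clones 3, 9, 10 and 11 and the original cells. The principal cell, the cell type the line stands for, was checked with 12 markers. In clone 2 they summed to 8274, Aqp2 included, against 16260 to 22690 in the expressing lines. Aqp2, Fxyd4 (780.8, against 2303.6 to 4214.3; limma adjusted p = 0.00977) and Gata3 (2109.0, against 3679.8 to 3975.0; limma adjusted p = 0.0146) fell in clone 2. The 6 others past the filter on low signal did not pass, among them the vasopressin receptor Avpr2, with 1741.9 against 1610 ± 128 (SD, n = 5), and the sodium channel subunit Scnn1g, with 108.0 against 182.7 to 987.9. Aqp4, Kcnj1 and Elf5 were under the filter. Of the proximal tubule markers, 9 of 10 lay under the array median in clone 2, and all 10 summed to 377.3 there, against 1062 to 1366 in the expressing lines. Lrp2, the only one past the filter, carried this gap with 115.6, against 808.7 to 1067.2. The rest summed to 261.6, against 239.7 to 344.3, inside the range of the expressing lines. The 8 fibroblast markers all lay under the array median in clone 2, with a summed signal of 248.6, against 185.2 to 318.1. Of 9 chromaffin cell and sympathetic neuron markers, 7 lay under it, with a sum of 476.9, against 471.7 to 590.7. Endothelial and leukocyte markers lay under it for 6 of 7 and summed to 786, against 182.8 to 529.2, with Cd68 carrying 619.3, against 121.6 to 323.1, and the rest 166.7, against 61.2 to 206.0. Intercalated cell markers lay under it for 6 of 7 and summed to 1112, against 775.9 to 1108. Of these, Atp6v1b1 read 949.3, against 413.0 to 687.3, and did not pass (limma adjusted p = 0.177), while Aqp6 fell, with 39.0 against 221.8 to 328.1 (log2 difference -2.36, limma adjusted p = 0.00648). Aqp6 passed the filter, a mean signal above 85.46, only through its level in the expressing lines. Without Atp6v1b1, their brightest, the intercalated cell markers summed to 162.4 in clone 2, against 321.2 to 480.9. Without Pnmt, their brightest, the chromaffin cell and sympathetic neuron markers summed to 332.4, against 336.2 to 431.7. No marker was listed at 0, and the part of these cell types in the results was not tested.

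Among the 6 lines, Maoa had its lowest signal in clone 2, well apart from the rest. The chosen probe set (1428667_at, chromosome X) read 44.0 in clone 2, against 577.5 in clone 3, 846.1 in clone 9, 707.1 in clone 10, 767.4 in clone 11 and 802.1 in the original cells. The expressing lines lay close together at 740 ± 104 (SD, n = 5), with the highest 1.47 times the lowest, and the groups did not overlap. The lowest of them was 13.1 times clone 2 and their mean was 16.8 times it. On the log2 scale, after adding the 25th percentile of all values, 18.81, to each signal, the difference was -3.58 (SE 0.226). In clone 2 the signal stood at the 40.7th percentile of its array, under the array median, while in the expressing lines it stood between the 75.9th and the 81.3rd. No detection call was used here, so a signal of this size does not show that the transcript was absent.

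The second Maoa probe set gave the same order of groups with a smaller gap. It read 31.7 in clone 2, against 114.4, 196.0, 67.8, 134.2 and 90.8 in clones 3, 9, 10 and 11 and the original cells, a log2 difference of -1.40 (SE 0.467). The expressing lines varied more on it than on the chosen one, at 121 ± 49.0 (SD, n = 5), and clone 10 came nearest to clone 2.

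Maob, the other monoamine oxidase and the gene next to Maoa on the X chromosome, was low in every line. Its only probe set read 2.7 in clone 2, against 22.7 in clone 3, 12.6 in clone 9, 8.4 in clone 10, 6.1 in clone 11 and 0.6 in the original cells. Clone 2 lay inside the range of the others, and the log2 difference of -0.38 was smaller than the SD of the expressing lines, 0.41. With no offset it was -1.21. The probe set stood at the 27.7th percentile of an array at most. A difference of the size seen for Maoa was not detectable from so low a level.

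Aldh2, which oxidises acetaldehyde and the aldehydes of the monoamines in mitochondria, was the other member with its chosen probe set lowest in clone 2. That probe set (1448143_at, chromosome 5) read 100.1 in clone 2, against 361.8 in clone 3, 794.7 in clone 9, 530.7 in clone 10, 324.0 in clone 11 and 675.6 in the original cells. The groups did not overlap, with the lowest expressing line 3.24 times clone 2, but the expressing lines were spread more widely than for Maoa, 537 ± 201 (SD, n = 5), the highest being 2.45 times the lowest. The log2 difference was -2.15 (SE 0.429), and clone 2 stood at the 53.0th percentile of its array, above the array median.

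The 4 other Aldh2 probe sets were all under the filter on low signal and disagreed on where clone 2 stood. Probe set 1434987_at read 5.1 in clone 2, against 28.5 to 56.3 in the expressing lines, and was the only one of the 4 with clone 2 lowest. Probe set 1434988_x_at read 47.1 in clone 2, above the range of 17.0 to 45.9 in the expressing lines. The remaining 2 had clone 2 inside the range, 31.5 against 1.9 to 49.9 and 4.3 against 2.7 to 61.5. The low Aldh2 signal in clone 2 thus rests on 1 probe set of good signal and 1 of low signal.

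Ddc, which converts L-DOPA to dopamine, was low in all lines. Its chosen probe set read 13.1 in clone 2, against 10.8 in clone 3, 32.3 in clone 9, 14.0 in clone 10, 25.4 in clone 11 and 34.3 in the original cells. Clone 2 lay inside the range, near clones 3 and 10, and the second probe set did not exceed 8.4 in any line.

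Aoc1, a secreted enzyme that breaks down histamine and putrescine, was low but uneven. Its probe set read 62.5 in clone 2, against 93.6 in clone 3, 4.4 in clone 9, 35.7 in clone 10, 8.9 in clone 11 and 25.5 in the original cells. Clone 2 was second highest, inside the range of the expressing lines, whose log2 SD of 0.90 exceeded the log2 difference of 0.87, which was 1.63 with no offset. Only clone 3 rose above its own array's median.

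**Figure D1:**
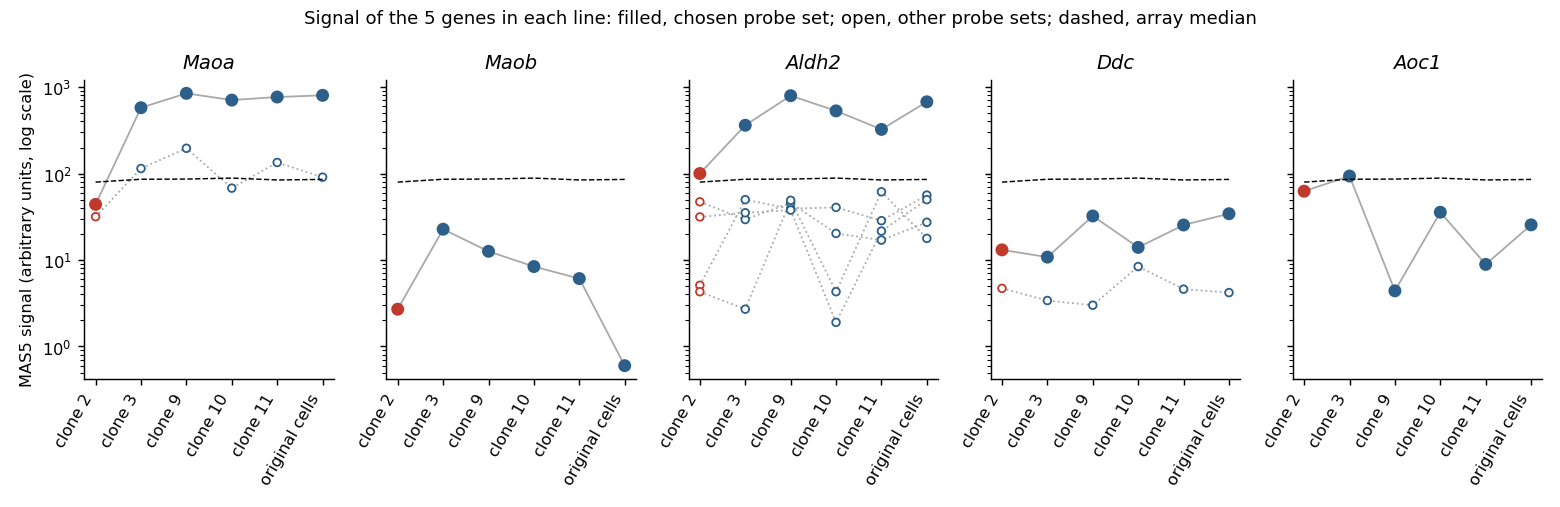
MAS5 signal (log axis) of the 5 genes in each line, clone 2 in red and the AQP2-expressing lines in blue, with 1 point per array, lines joining the points of a probe set, filled points for the chosen probe set, open points for the others, and the array median dashed. Maoa reads 44.0 in clone 2, against 577.5 to 846.1, and Aldh2 100.1, against 324.0 to 794.7, while Maob and Ddc lie under the median in every line and Aoc1 in every line but clone 3.

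Over the members, the chosen probe set was below all expressing lines in clone 2 for 2 of 5 genes, Maoa and Aldh2, and inside their range for 3. Of all 11 probe sets, 4 were below, 1 above and 6 inside, where 24.5% of the array's 45037 probe sets had clone 2 below all the others. Only 3 member probe sets, those of Maoa and the chosen one of Aldh2, exceeded 85.46, the median of all probe sets' means over the 6 arrays, as the tests required. Those of Maoa, at 44.0 and 31.7 in clone 2, passed through their level in the expressing lines. That of Aldh2 was above this limit in clone 2 as well, at 100.1, and the 8 others did not pass. Among the 22518 probe sets that passed, 29.3% had clone 2 below all the expressing lines. Since the comparison itself chose the genes, nothing is read from these counts. Across the 5 expressing lines alone, the chosen probe sets of Maoa and Aldh2 had a Pearson r of 0.645 on the log2 scale, and across all 6 lines 0.909, where clone 2 is the low point of both; the second Maoa probe set correlated with the chosen one at 0.357 and 0.811. These are descriptions over few arrays that share their scaling.

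The variation of Maoa and Aldh2 among the AQP2-expressing lines was tested with limma over all probe sets past the filter. Maoa was chosen for its gap to these lines, which can favour a gene on which they lie close together. The tests of Maoa are therefore not independent of the choice. The first question, that of the study's design, was whether a transcript follows Aqp2 among these lines. Aqp2 spanned 6.17-fold over them, lowest in clone 10 and highest in clone 11, whereas Maoa was lowest in clone 3 and highest in clone 9. Per doubling of Aqp2, Maoa differed by 0.13 on the log2 scale (SE 0.083, limma adjusted p = 0.600), its second probe set by 0.32 (SE 0.166, limma adjusted p = 0.504) and Aldh2 by 0.03 (SE 0.186, limma adjusted p = 0.971). No member passed, also at an unadjusted p under 0.05, which 11.5% of all probe sets reached with limma. After adjustment the test called 0.0133% of the probe sets. With 5 lines and 3 residual degrees of freedom, slopes of this size could not be told from 0.

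Each expressing line was also set against the 4 others. Maoa was lowest in clone 3, with 577.5 against 781 ± 58.7 in the other 4 (SD, n = 4), which is -0.42 as a log2 difference (limma SE 0.187, adjusted p = 0.999). Aldh2 was highest in clone 9, with 794.7 against 473 ± 162 (SD, n = 4; 0.78 as a log2 difference, limma SE 0.353, adjusted p = 0.401), and lowest in clone 11, with 324.0 against 591 ± 187 (SD, n = 4; -0.77, SE 0.372, limma adjusted p = 0.998). The second Maoa probe set was also highest in clone 9, with 196.0 against 102 ± 28.8 (SD, n = 4; 0.87, SE 0.374, limma adjusted p = 0.382). Of the 18 tests of the 3 probe sets, those on Aqp2 included, limma called 0 after adjustment, and 1, that of the second Maoa probe set in clone 9, had an unadjusted p under 0.05, as had 12.8% of all probe sets in that comparison. The test called 0.573% of probe sets in clone 9, 0.00444% in clone 3, in clone 11 and in the original cells, and 0.0% in clone 10, where 882 had an unadjusted p under 0.05. Some of these lines lay outside the range of the other 4, but with a single array a line no member passed the adjusted threshold.

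The profiles nearest to that of Maoa belonged to genes of other pathways. The likeness was measured as the root mean square distance between log2 profiles, each centred over the 6 lines, among 10342 genes with 1 probe set each. The nearest were Dram1, a lysosomal membrane protein (distance 0.273, r = 0.981 over 6 lines), Col4a4 and Col4a3, 2 chains of basement membrane collagen (0.301 and 0.320), Lrp2, the endocytic receptor megalin (0.407), and Rbm45, an RNA-binding protein (0.440). Dram1 read 18.2 in clone 2, against 340 ± 84.1 (SD, n = 5) in the expressing lines, and Col4a3 read 10.0, against 201 ± 57.0. All 5 share with Maoa the low value in clone 2, which sets most of the distance over 6 arrays.

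Nearest to Aldh2 were Fhl1, a LIM domain protein of the cytoskeleton (distance 0.156, r = 0.986 over 6 lines), Nav1, a microtubule-associated protein (0.329), and 1700025G04Rik (0.341). Fhl1 read 281.2 in clone 2, against 758.9, 2044.2, 1370.6, 649.6 and 1514.4 in clones 3, 9, 10 and 11 and the original cells. The 5 expressing lines had the same order in Fhl1 as in Aldh2, from clone 11 as the lowest to clone 9 as the highest. Fhl1 was picked as the nearest profile over these same lines, so a like order is favoured by that choice. Maob, Ddc and Aoc1 were under the filter and were not compared in this way.

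**Figure D2:**
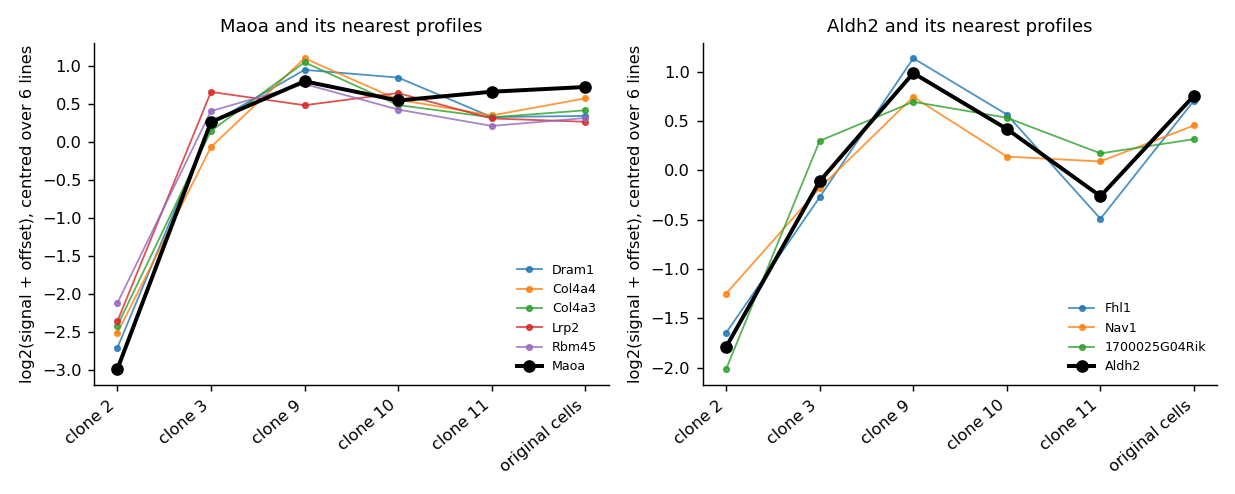
Log2(signal + offset) centred over the 6 lines for Maoa (left, black) with its 5 nearest genes and for Aldh2 (right, black) with its 3 nearest, 1 point per array, clone 2 leftmost. Every profile has its lowest point in clone 2, and in the right panel Fhl1 runs along Aldh2 at a distance of 0.156.

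The X-linked genes around Maoa did not share its low signal in clone 2 where they could be compared. Of 297 X-linked genes past the filter, Maoa had the most negative difference between clone 2 and the expressing lines. Maoa was chosen for its low signal in clone 2, so nothing is read from this rank. The median of the 297 was 0.47 and 38 of them were negative. Over all 10342 genes the median was 0.01 and 5016 were negative. Of the 5 nearest genes on each side with a probe set of their own, in the order of assembly GRCm38.p6, only Cask, a membrane scaffold kinase, and Fundc1, a mitophagy receptor of the outer mitochondrial membrane, passed the filter. Cask read 1107.2 in clone 2, against 803.1, 1383.7, 693.0, 855.6 and 738.9 in clones 3, 9, 10 and 11 and the original cells (log2 difference 0.35, limma adjusted p = 0.579). Fundc1 read 1154.3, against 850.4, 733.9, 930.0, 948.7 and 857.7 (0.42, limma adjusted p = 0.242). Neither passed the test, and both had a higher signal in clone 2 than their mean in the expressing lines. The other 8, Maob among them, were under the filter.

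Leaving Maoa aside, 3 X-linked genes passed the test and were lower in clone 2, named here after their values were seen. The protocadherin Pcdh19 read 32.8 in clone 2, against 433 ± 165 (SD, n = 5; log2 difference -3.04, limma adjusted p = 0.0164). The chromatin remodeller Smarca1 read 3.1, against 118 ± 52.7 (-2.55, limma adjusted p = 0.04995), and its call was lost in 9 of 12 alternatives (0.0149 to 0.112), among them those without clone 3, 10 or 11 or the original cells. Dmd, which encodes dystrophin, read 114.6, against 480 ± 69.0 (-1.89, limma adjusted p = 0.00738). Pcdh19 and Dmd stayed under the threshold in all 12 alternatives run. Over all genes, 1.86% fell. Pcdh19 and Smarca1, at 32.8 and 3.1 in clone 2, passed the filter of 85.46 only through their level in the expressing lines. Dmd, at 114.6, was above this limit in clone 2 as well. A filter on the mean over all arrays admits a gene low in clone 2 alone more readily than one high there alone.

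**Figure D3:**
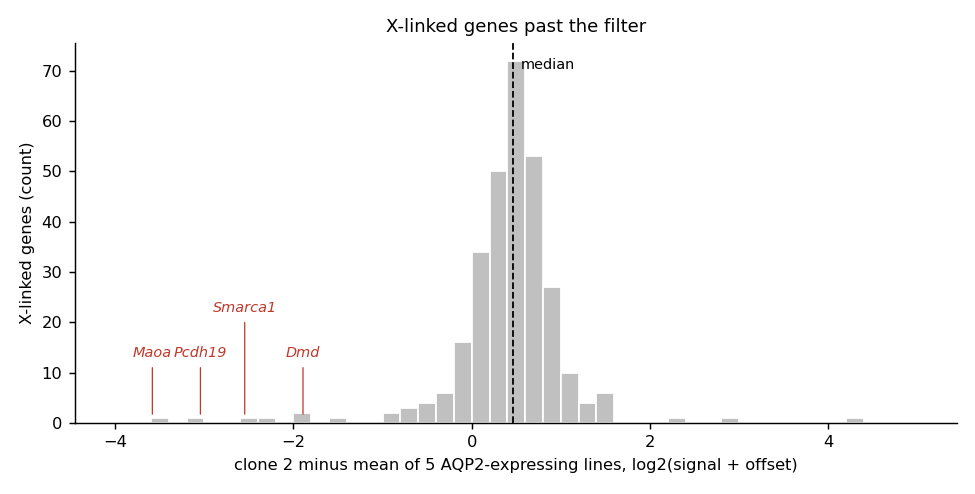
Number of X-linked genes past the filter (n = 297) by the difference between clone 2 and the mean of the 5 AQP2-expressing lines, on the log2(signal + offset) scale, with the median of 0.47 dashed. Maoa, chosen for its low signal in clone 2, lies farthest left at -3.58, and most genes lie right of 0.

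Whether other genes of the pathway were low in clone 2 was tested on 119 listed genes outside the members. The lists were drawn up with earlier results of these data known, so the test is not independent of them. Of these, 98 had a probe set of their own and 54 passed the filter, and with limma 1 fell, 2 rose and 51 did not pass (15 had an unadjusted p under 0.05, as had 22.3% of all 10342 genes), where over all genes 1.86% fell and 1.29% rose. The median difference of the 54 was -0.12, against 0.01 over all genes. Clone 2 was below all the expressing lines for 19 of them and above for 9, where the shares over all genes were 26.9% and 29.0%.

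Among the other amine oxidases and amine-conjugating enzymes, the 2 genes that passed the filter both rose in clone 2, and both act on polyamines. Sat1, which acetylates spermidine and spermine, read 7789.8 in clone 2, against 3154.9, 3009.4, 3188.0, 2292.4 and 2811.0 in clones 3, 9, 10 and 11 and the original cells (log2 difference 1.43, SE 0.184, limma adjusted p = 0.00933). Smox, which oxidises spermine, read 2244.5, against 1034.7, 1081.3, 822.3, 780.9 and 1012.9 in the same order (1.24, SE 0.209, limma adjusted p = 0.0241). In both genes clone 2 was more than 2 times the highest expressing line. Sat1 is X-linked, where the median was also higher, and Smox lies on chromosome 2. Smox no longer passed when the original cells were left out (adjusted p = 0.0555) or when the variance was fitted with no trend (0.0582), and its adjusted p lay between 0.0140 and 0.0582 over 13 alternatives. Sat1 passed in all 13 (0.00544 to 0.0372). The copper amine oxidase Aoc3 and Hnmt, which methylates histamine, were under the filter.

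Of 9 other aldehyde dehydrogenases past the filter, 1 fell, Aldh7a1, an enzyme of lysine breakdown, and 8 did not pass. Aldh7a1 read 428.3 in clone 2, against 711.2, 720.6, 768.9, 708.8 and 730.2 in clones 3, 9, 10 and 11 and the original cells (log2 difference -0.74, SE 0.160, limma adjusted p = 0.04995). This call was lost in 9 of 13 alternatives (0.0422 to 0.102), among them those without clone 3 (0.0837), clone 10 (0.0806), clone 11 (0.0856) or the original cells (0.102). Aldh18a1, of proline synthesis, read 2940.7, against 4860 ± 555 (SD, n = 5; -0.71, limma adjusted p = 0.0579). Aldh9a1, which acts on aminoaldehydes, read 2106.4, against 2488 ± 220 (-0.23, limma adjusted p = 0.428). The median of the 9 was -0.23, and the retinal-oxidising Aldh1a1, Aldh1a2 and Aldh1a3 were all under the filter. Aldh18a1 and Aldh9a1, the brightest of the list, were named after their values were seen.

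Of 7 aldehyde and aldose reductases and alcohol dehydrogenases past the filter, 0 passed in clone 2 (1 at an unadjusted p under 0.05), with 2 above all the expressing lines and a median of 0.00. The shares over all genes were 22.3% at an unadjusted p under 0.05 and 29.0% above all the expressing lines. Akr1b3, an aldose reductase, and Akr1b7 had no probe set of their own and were not compared. Akr1a1, aldehyde reductase, read 18623 in clone 2, against 16810 ± 455 (SD, n = 5; log2 difference 0.15, limma adjusted p = 0.413). Akr1b8, an aldo-keto reductase named after its values were seen, read 1021.3, against 112.2 to 514.5 (2.13, limma adjusted p = 0.116). Adh5, which handles formaldehyde bound to glutathione, read 4864.6 in clone 2, against 5675 ± 1101 (-0.19, limma adjusted p = 0.717). In clone 9, however, Adh5 fell, with 3725.4 against 6162 ± 182 in the 4 other expressing lines (SD, n = 4; -0.72 as a log2 difference, limma SE 0.112, adjusted p = 0.0327). That call was lost without clone 3 (adjusted p = 0.0869), clone 10 (0.0824) or the original cells (0.0895), with no filter (0.102) and without the mean-variance trend (0.193), and over 12 alternatives its adjusted p lay between 0.0251 and 0.193.

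Genes of amine synthesis did not pass in clone 2, 0 of 7 past the filter (1 at an unadjusted p under 0.05, as had 22.3% of all genes, median -0.11). Qdpr and Pcbd1, which recycle the cofactor tetrahydrobiopterin, read 3023.3 and 2953.3 in clone 2, against 3618 ± 324 and 3576 ± 224 in the expressing lines (SD, n = 5 each; limma adjusted p = 0.384 and 0.294). Th, Dbh, Tph1, Tph2 and Hdc, the enzymes that commit a cell to catecholamines, serotonin or histamine, were all under the filter. Of the amine transporters, 0 of 4 passed (2 at an unadjusted p under 0.05, as had 22.3% of all genes, median -0.28). Slc3a2 and Slc7a5, which together carry large neutral amino acids such as L-DOPA, read 4981.8 and 1073.4 in clone 2, against 6414 ± 709 and 1796 ± 272 (SD, n = 5 each; limma adjusted p = 0.238 and 0.101). The 16 amine receptors with a probe set were all under the filter, the brightest being the histamine receptor Hrh2 with 65.9 in clone 2, against 6.4 to 81.4, and the serotonin receptor Htr1b with 68.9, against 14.4 to 133.4.

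Genes around the monoamine oxidase reaction did not pass either. For the supply of FAD, 0 of 4 passed (0 at an unadjusted p under 0.05, median 0.10). Rfk, which makes FMN from riboflavin, read 2361.8 in clone 2, against 2460 ± 97.2 (SD, n = 5; limma adjusted p = 0.847). Flad1, which makes FAD from it, read 589.1, against 610 ± 83.1 (limma adjusted p = 0.943). Of the genes that remove peroxide and superoxide, 0 of 13 passed (4 at an unadjusted p under 0.05, median -0.07), with 6 below all the expressing lines. The shares over all genes were 22.3% at an unadjusted p under 0.05 and 26.9% below all the expressing lines. Txn1, thioredoxin, read 13881 in clone 2, against 12020 ± 628, and Sod1, superoxide dismutase, read 8152.9, against 8556 ± 545 (SD, n = 5 each; limma adjusted p = 0.320 and 0.796). Cat, catalase, named after its values were seen, read 558.7, against 896.0 to 1503.0 (log2 difference -1.08, limma adjusted p = 0.0541).

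Of 8 transcription factors described at the human MAOA promoter, 0 passed in clone 2 (3 at an unadjusted p under 0.05, median -0.26), and 5 were below all the expressing lines. Over all genes, 22.3% had an unadjusted p under 0.05 and 26.9% were below all the expressing lines. With 8 genes, nothing is read from these counts. Sp1 and Sp3, which bind GC boxes such as those printed above, read 6203.2 and 2385.0 in clone 2, against 6967 ± 585 and 3046 ± 137 (SD, n = 5 each; limma adjusted p = 0.543 and 0.182). Sp1 in clone 2 lay inside the range of the expressing lines and Sp3 below it. Gata2, named after its values were seen, read 98.2 in clone 2, against 209.7 to 832.9 in the expressing lines (log2 difference -1.94, limma adjusted p = 0.0880). Apart from Adh5 in clone 9, no listed gene passed in the tests among the expressing lines.

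**Figure D4:**
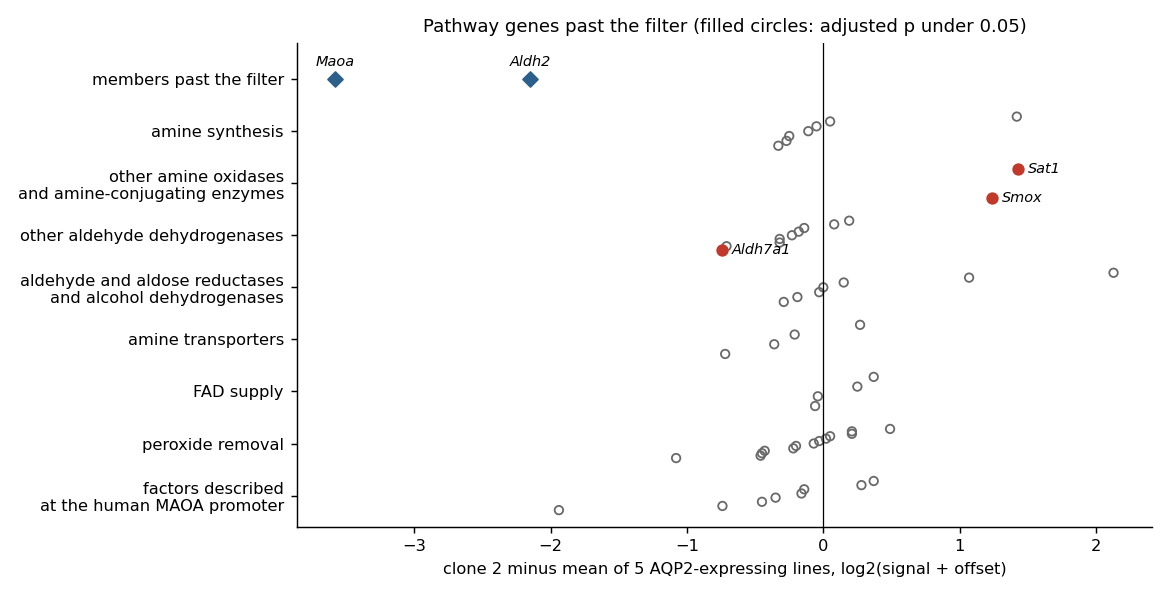
Difference between clone 2 and the mean of the 5 AQP2-expressing lines, on the log2(signal + offset) scale, for the 54 listed genes past the filter (circles, filled where limma's adjusted p was under 0.05) and for Maoa and Aldh2 (diamonds, not tested), 1 row per list. Maoa at -3.58 and Aldh2 at -2.15 lie left of every listed gene, and the filled circles are Sat1, Smox and Aldh7a1.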

How the data were processed

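The authors made the deposited intensity values with the MAS5 algorithm in Affymetrix Expression Console 1.1, as the submitters' processing notes say; they are linear. Each array's mean without its lowest and highest 2% was 499.9, so the arrays were already scaled; the scaling target is not given in the sources used here. Detection calls and scanner files were not used here. The 64 control probe sets were left out, which left 45037; 34945 had 1 gene in the platform's annotation, 932 several and 9160 none named; RefSeq (GRCm38.p6) gave a current symbol for 34741 of the single-gene ones.

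Log2(signal + 18.81) was tested with limma 3.58.1 in R 4.3.3 (eBayes with a mean-variance trend, two-sided, Benjamini-Hochberg adjustment over 22518 probe sets, threshold 0.05). A single line was assumed to vary like the others in its fit. P-values measure the spread between these arrays only, and the number of arrays limits the precision. The fits were also run on simulated data with independent noise and spreads shuffled between probe sets. There every line varied alike, so these runs could not check the assumption that a single line varies like the others. The members and gene lists were chosen with earlier results of these data known. Named were the members, Aqp2, listed genes that passed or else the 2 brightest of a list, the nearest profiles and the nearest genes to Maoa; others are said to be chosen after their values were seen. Alternatives were the offset, the filter, the normalization, the variance model, the lines included and the probe set.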

Additional observations from a re-analysis of the deposited data

How the results depend on the processing

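Without single expressing lines, Maoa's log2 difference stayed between -3.67 and -3.53 and Aldh2's between -2.30 and -1.99; Maoa's was -4.06 with an offset of 0 and -3.24 with a doubled one, and with an offset of 0 Maob's was -1.21, against -0.38, Ddc's -0.69, against -0.36, and Aoc1's 1.63, against 0.87. Other Aldh2 probe sets gave 0.53 and 0.17, opposite in sign to the chosen one, and the cause was not tested. Of 560 probe sets called in clone 2, the count was 219 without the mean-variance trend, 210 with no filter and 154 (without the original cells) to 943 (without clone 9) with a line left out. The 1 pathway gene that fell, Aldh7a1, became 0 genes with a doubled offset, no filter, quantile normalization, median centring or no trend, 2 with a filter at the 75th percentile, 3 with a robust fit and 0 to 2 with a line left out; the 2 that rose became 1 without the trend and 1 to 3 with a line left out. The slope on Aqp2 called 3 probe sets, 0 with no filter, a 75th percentile filter or no trend, 5 with a robust fit, 0 to 14 with a line left out and 397 with clone 2 added. That last count includes 1 member probe set, of Maoa, from which nothing is read, since its value in clone 2 chose the gene. The single-line comparisons called 132 in all, 66 with the stricter filter, 39 with none, 41 without the trend, 48 adjusted over all 5 together and 33 to 239 with a line left out. No member was called in any other alternative of these 2 tests. No paired analysis was possible because the labels give the lines no replicate numbers and clone 2 is 1 array. Signals under the array median, as for Maob, Ddc and mostly Aoc1, limit what can be compared.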
